A study of Pararge aegeria with 4 samples.

Results

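Insulin and TOR signalling genes of the ovary of *Pararge aegeria*, the Speckled Wood butterfly, were taken from the annotation of a combined ovarian transcriptome. A contig was included when any of its annotation entries held the word insulin, target of rapamycin, forkhead box O, FOXO, tuberous sclerosis, tuberin, hamartin, Rheb, raptor, rictor, S6 kinase or 1 further pathway name, and contigs named insulin-degrading were left out. These words found 41 of 17636 contigs, which belong to 26 of 9873 Trinity genes. A Trinity gene is a cluster of contigs that the assembler derived from one locus, and its level was taken here as the sum over its contigs that hold one of the words. Expression was given in FPKM, fragments mapped to a contig relative to its length and to all mapped fragments of the library.

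The study compared ovaries of laboratory-reared females from Zonza on Corsica with those from St Hubert in Belgium, taken from mated females at the peak of egg production under the same temperature and light regime. The Zonza stock was newly established and the St Hubert stock had been kept in the laboratory for years, so population and time in culture cannot be told apart. Each population had 1 mRNA library, made from more than 1 female, so the spread between females is unknown and the populations could not be tested against each other. Fold changes were described only, on the log2(FPKM + 1) scale with Zonza over St Hubert, and a gene was called higher or lower in Zonza when it passed 2-fold on that scale. The added 1 understates the difference of genes at low levels.

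In insects, insulin-like peptides are secreted hormones that bind a receptor tyrosine kinase, InR, which acts through its substrate IRS, phosphatidylinositol 3-kinase (PI3K), PDK1 and the kinase Akt. FOXO is the transcription factor that Akt keeps out of the nucleus, and the tuberin-containing TSC complex holds back the small GTPase Rheb, which switches on the kinase TOR. Through S6 kinase and the 4E-binding protein, TOR complexes raise translation and cell growth, and in *Drosophila* the pathway sets the pace of egg chamber growth and yolk uptake according to nutrition.

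FPKM is scaled to each library, and the totals over the contigs were similar, 551865 FPKM in Zonza and 545687 FPKM in St Hubert. Marker genes fixed for the tissue were checked beside the pathway. The germ line markers summed to 1140 FPKM in Zonza and 1383 FPKM in St Hubert. Of these, 0 of 9 were past 2-fold, against 10.3% of all genes with a mean of at least 1 FPKM. Vasa, a germ line RNA helicase, stood at 67.9 FPKM in Zonza and 82.2 FPKM in St Hubert. Chorion genes, which late follicle cells use to build the eggshell, were higher in Zonza in 11 of 13 cases, against 5.20% of all genes. They summed to 10549 FPKM in Zonza and 2960 FPKM in St Hubert. Fat body markers summed to 7203 FPKM in Zonza and 2973 FPKM in St Hubert, although the ovaries had been dissected free of fat. Most of that sum was vitellogenin, at 4807 FPKM in Zonza and 2522 FPKM in St Hubert, and apolipophorin-III, at 2086 FPKM in Zonza and 319 FPKM in St Hubert. Of the 9 fat body markers, 3 of the 7 past the filter were higher in Zonza, against the same 5.20% of all genes. Among these 3 was the only hexamerin found, a storage protein, at 2.02 FPKM in Zonza and listed at 0 in St Hubert. The hexamerin passed the filter only through Zonza. Muscle markers summed to 842 FPKM in Zonza and 921 FPKM in St Hubert. Of the 26 past the filter, 3 were lower and 0 higher in Zonza, against 5.12% and 5.20% of all genes. Their log2 ratio was below 0 in 18 of the 26 (69.2%), against 50.6% of all genes tested, with a median of -0.31. The part of egg stage and of these other tissues in the pathway values below was not tested, and in bulk RNA fewer cells of a type and less RNA per cell cannot be told apart.

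Of the 26 genes, 15 had an annotated role in the pathway and 11 carried one of the words for another reason, such as a ribosomal S6 kinase of another class. The word stood in the BLASTx hit of 18 genes and in the hit against an earlier ovarian transcriptome of 15 genes, and in both for 8 genes. FOXO was the 1 gene found through neither, but through a *Bombyx mori* nucleotide hit. A mean of at least 1 FPKM over both libraries was required of a gene before its fold change was used, and 24 of the 26 met it. Most genes of the set were expressed at low levels. The median of the mean FPKM was 4.95 over these 24 genes, compared with 18.99 over the 9457 genes of the transcriptome that met the same minimum, and 20 of the 24 were under 10 FPKM.

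**Figure D1:**
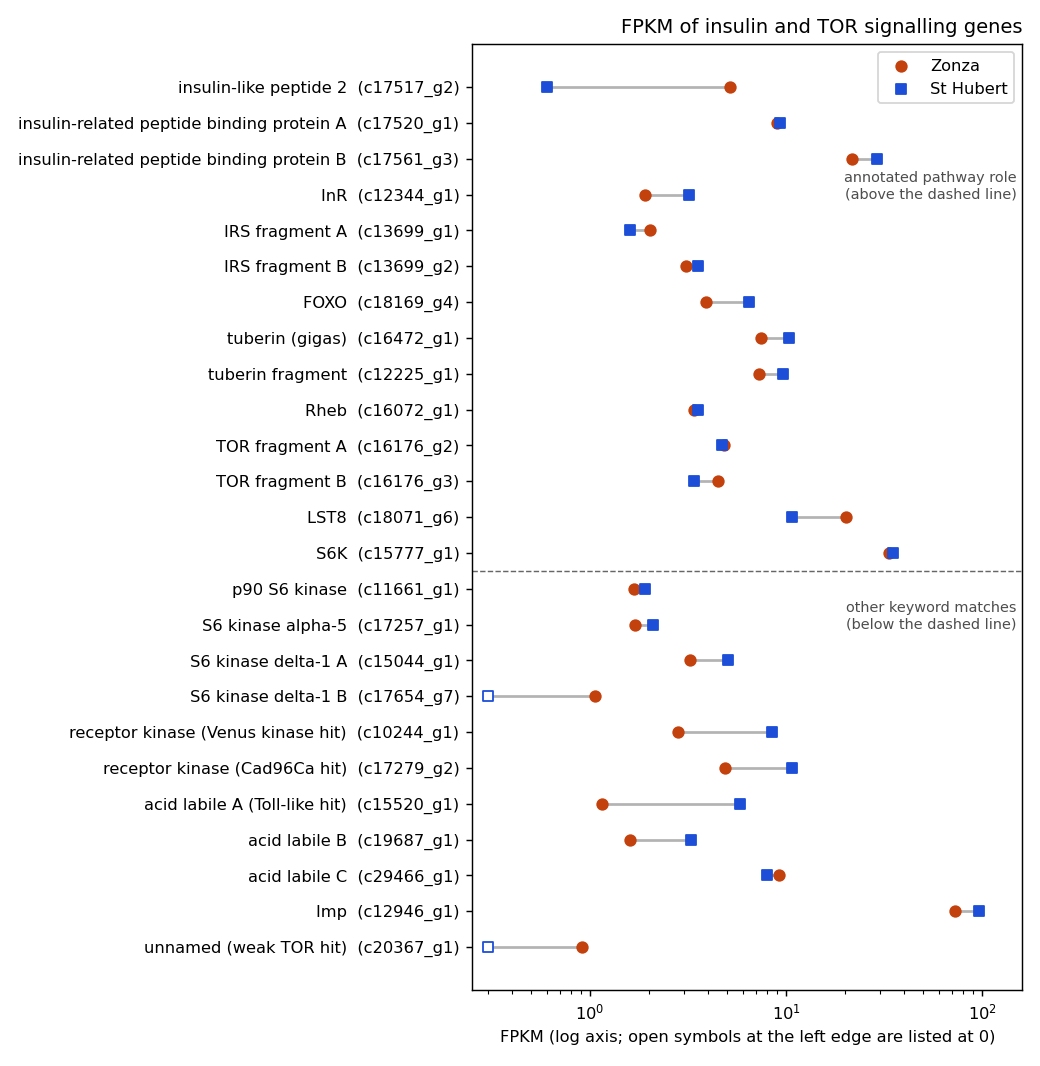
FPKM on a log axis of genes of the keyword set in the Zonza library (circles) and the St Hubert library (squares), with 1 library per population and therefore no error bars. Genes with a pathway role are above the dashed line in the order of the cascade, and most points lie under 10 FPKM, with Imp (72.6 FPKM in Zonza and 96.6 FPKM in St Hubert) and S6K (33.5 FPKM in Zonza and 35.2 FPKM in St Hubert) as the most abundant of the set.

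The ligand found by these words was insulin-like peptide 2 (c17517_g2). Its contig of 1407 bases stood at 5.17 FPKM in Zonza and at 0.60 FPKM in St Hubert, a log2 ratio of 1.95. It was the only gene of the set called higher in Zonza, where 5.20% of all genes tested were called in that direction. At a mean of 2.89 FPKM it lay above only 9.87% of the genes tested. The name comes from the earlier transcriptome alone, because the BLASTx hit is a hypothetical protein. A longer contig of the same Trinity gene, which carries no insulin annotation, was at 6.62 FPKM in Zonza and 3.21 FPKM in St Hubert.

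Bombyxins, the insulin-like peptides first known from the silk moth brain, are annotated without the word insulin and were read from a separate list. The bombyxin A-1 homolog (c1476_g1) reached 313 FPKM in Zonza and 161 FPKM in St Hubert, a log2 ratio of 0.95, just within 2-fold. It stood above 97.1% of the genes tested, far above insulin-like peptide 2. The bombyxin A-3 homolog (c16507_g5) was higher in Zonza, with 22.7 FPKM in Zonza and 9.67 FPKM in St Hubert, a log2 ratio of 1.15. All 3 annotated ligands had the larger value in Zonza, but insulin-like peptide 2 met the minimum level only through Zonza. With a pseudocount of 5 its log2 ratio was 0.86, within 2-fold, and with a pseudocount of 0.1 it was 2.91.

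Insulin-related peptide binding proteins are secreted proteins that, in other Lepidoptera, bind insulin-like hormones. Binding protein A (c17520_g1) was at 8.94 FPKM in Zonza and 9.32 FPKM in St Hubert. Binding protein B (c17561_g3) was at 21.6 FPKM in Zonza and 29.1 FPKM in St Hubert, a log2 ratio of -0.41, and lay above 60.3% of the genes tested. Neither passed 2-fold, and the sign for A depended on the contig read.

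The insulin receptor InR (c12344_g1), the receptor tyrosine kinase that starts the cascade, was represented by a single contig of 4167 bases that matched the *Drosophila* receptor and the insulin receptor of *Manduca sexta*. It was at 1.90 FPKM in Zonza and 3.21 FPKM in St Hubert, a log2 ratio of -0.54, and lay above only 8.89% of the genes tested. The receptor substrate IRS was split over fragments. Fragment A (c13699_g1) was at 2.03 FPKM in Zonza and 1.59 FPKM in St Hubert, and fragment B (c13699_g2) was at 3.07 FPKM in Zonza and 3.53 FPKM in St Hubert. Their log2 ratios of 0.23 and -0.15 had opposite signs, and neither was near 2-fold. A further contig of c13699_g1 (i2), which carries none of the words, was at 2.31 FPKM in Zonza and 2.50 FPKM in St Hubert. With all contigs summed, the log2 ratio of fragment A was 0.069. Receptor and substrate were therefore both detected in both populations, among the lowest levels of the pathway.

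FOXO (c18169_g4), the forkhead transcription factor restrained by Akt, was at 3.88 FPKM in Zonza and 6.42 FPKM in St Hubert, a log2 ratio of -0.60. The value was the smaller in Zonza, within 2-fold. A second gene (c18981_g3) carried the name forkhead box protein O1 from the earlier transcriptome but a plant extensin-like BLASTx hit. It was at 19.0 FPKM in Zonza and 9.38 FPKM in St Hubert, and its identity as a FOXO gene is uncertain.

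Tuberin, called gigas in *Drosophila*, is the subunit of the TSC complex that inactivates Rheb. The gigas gene (c16472_g1) was at 7.43 FPKM in Zonza and 10.3 FPKM in St Hubert, a log2 ratio of -0.43, and a further tuberin fragment (c12225_g1) was at 7.26 FPKM in Zonza and 9.61 FPKM in St Hubert, a log2 ratio of -0.36. Both tuberin fragments had the smaller value in Zonza, by less than 2-fold. Rheb (c16072_g1), the GTPase they act on, was nearly even, with 3.38 FPKM in Zonza and 3.55 FPKM in St Hubert. No contig named hamartin, the partner of tuberin, was found by these words.

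The kinase TOR was also split. TOR fragment A (c16176_g2, 3874 bases) was at 4.80 FPKM in Zonza and 4.69 FPKM in St Hubert, and TOR fragment B (c16176_g3, 3995 bases) was at 4.49 FPKM in Zonza and 3.38 FPKM in St Hubert. Their log2 ratios were 0.028 and 0.33. Further hits to the kinase, which the word search missed (c16176_g1 because of an extra space in its name), lay on the other side of 0. These were c16176_g1, at 0.67 FPKM in Zonza and 1.33 FPKM in St Hubert, and c8340_g1, under the minimum at 0.46 FPKM in Zonza and 1.30 FPKM in St Hubert, so the fragments of TOR gave no common direction. LST8 (c18071_g6), a subunit that binds the TOR kinase domain in both TOR complexes, was at 20.2 FPKM in Zonza and 10.8 FPKM in St Hubert. Its ratio of 1.88 (log2 0.85 on the scale used) did not pass 2-fold. S6K (c15777_g1), the kinase that TOR complex 1 activates to raise translation, was the most abundant of the 15 genes of the set with a pathway role, at 33.5 FPKM in Zonza and 35.2 FPKM in St Hubert. It lay above 71.1% of the genes tested and was even between the libraries, with a log2 ratio of -0.069.

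Raptor, which recruits substrates to TOR complex 1, and rictor, the defining subunit of TOR complex 2, carried longer names in this annotation and were read as a separate list, drawn up after the annotation had been seen. One raptor hit (c20152_g1) was lower in Zonza, at 3.40 FPKM in Zonza and 7.92 FPKM in St Hubert, a log2 ratio of -1.02. The rictor hit (c9055_g1) was at 1.76 FPKM in Zonza and 2.63 FPKM in St Hubert, and Lobe (c16857_g2), the fly relative of a TOR complex 1 inhibitor, was at 26.6 FPKM in Zonza and 23.96 FPKM in St Hubert. Of the 6 genes of this list that met the minimum, 1 was lower in Zonza and 5 were within 2-fold, with a median log2 ratio of -0.44. The raptor call lies close to the threshold, and the other raptor hits, c11552_g1 and c5741_g1, were within 2-fold at log2 ratios of -0.64 and -0.39.

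**Figure D2:**
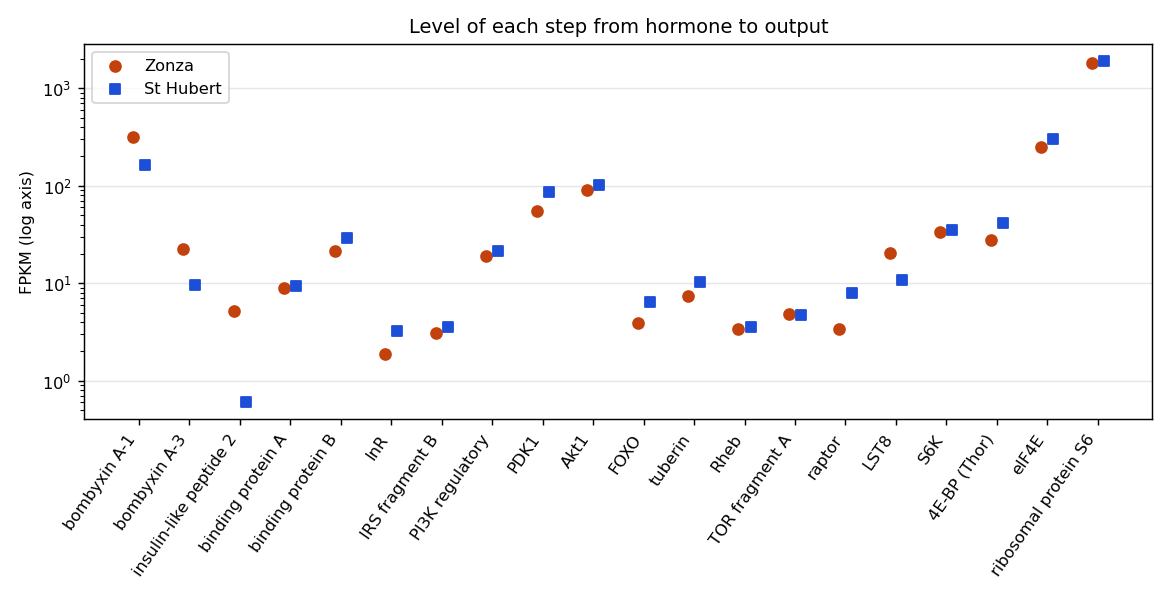
FPKM on a log axis of pathway genes from hormone to output, with Zonza as circles to the left and St Hubert as squares to the right of each tick, 1 library each. Of the genes drawn, InR is the lowest in Zonza (1.90 FPKM) and insulin-like peptide 2 the lowest in St Hubert (0.60 FPKM), while PDK1, Akt1 and the translation genes stand higher.

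The 11 genes without a clear role in the pathway held both calls of lower expression, against 5.12% of all genes tested called in that direction. A short contig of 430 bases (c10244_g1) had been named insulin-like peptide receptor in the earlier transcriptome, and its nucleotide hit is an insulin receptor-related receptor. Its BLASTx hit, however, is a venus kinase receptor, a receptor tyrosine kinase of invertebrates with a ligand-binding domain unlike that of InR. It was lower in Zonza, at 2.81 FPKM in Zonza and 8.42 FPKM in St Hubert, a log2 ratio of -1.31. A second receptor kinase (c17279_g2) matched the same contig of the earlier transcriptome more weakly, at an E-value of 9e-12 against 5e-127 for c10244_g1. Its BLASTx hit was Cad96Ca. It was at 4.85 FPKM in Zonza and 10.6 FPKM in St Hubert, a log2 ratio of -0.99, and so stopped just short of the threshold.

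The acid labile subunit is, in mammals, a leucine-rich repeat protein that carries insulin-like growth factors in blood, and its name rests here on sequence hits only. The gene named acid labile A (c15520_g1), whose BLASTx hit is a Toll-like receptor, was lower in Zonza, at 1.15 FPKM in Zonza and 5.79 FPKM in St Hubert, a log2 ratio of -1.66. Acid labile B (c19687_g1) was at 1.60 FPKM in Zonza and 3.28 FPKM in St Hubert, and acid labile C (c29466_g1) was at 9.15 FPKM in Zonza and 7.99 FPKM in St Hubert. The log2 ratios of B and C were -0.72 and 0.18, so the genes under this name differed in sign.

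Imp (c12946_g1), an RNA-binding protein of the ovary named after the mammalian binding protein of insulin-like growth factor 2 mRNA, is no part of the signalling cascade. It was the most abundant gene found, at 72.6 FPKM in Zonza and 96.6 FPKM in St Hubert, a log2 ratio of -0.41, above 91.0% of the genes tested. S6 kinases of other classes were scarce. The p90 S6 kinase (c11661_g1) was at 1.68 FPKM in Zonza and 1.90 FPKM in St Hubert, S6 kinase alpha-5 (c17257_g1) at 1.69 FPKM in Zonza and 2.09 FPKM in St Hubert, and S6 kinase delta-1 A (c15044_g1) at 3.23 FPKM in Zonza and 5.02 FPKM in St Hubert. The 2 genes under the minimum were S6 kinase delta-1 B (c17654_g7), at 1.06 FPKM in Zonza, and an unnamed gene with a weak hit to TOR (c20367_g1), at 0.91 FPKM in Zonza. These values are for the 1 contig of each gene that holds one of the words. Both contigs were listed at 0 in St Hubert, and no fold change was given. Other contigs of both Trinity genes carry no such word. Of these, i2 of c17654_g7, named presqualene diphosphate phosphatase, was at 23.3 FPKM in Zonza and 29.8 FPKM in St Hubert. In c20367_g1, i2 was at 0.51 FPKM in Zonza and 14.8 FPKM in St Hubert, and i5 at 13.4 FPKM in Zonza and 7.59 FPKM in St Hubert.

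Over the whole set, 3 of the 24 genes tested passed 2-fold, which is 12.5%, against 10.3% of the 9457 genes of the transcriptome in either direction. All 3 were under 10 FPKM, where 15% of the set (3 of 20, 1 higher and 2 lower in Zonza) and 17.0% of all 2793 genes at that level passed (8.34% higher and 8.63% lower). The share past 2-fold was thus near the background at both levels. With a pseudocount of 5, or with only genes that hold the keyword in their BLASTx hit, 0 genes were called in either direction. A pseudocount of 0.1 gave 3 lower and 1 higher. The log2 ratio was below 0 in 17 of the 24 genes (70.8%) and above 0 in 7, with a median of -0.18. Over all genes tested, 50.6% were below 0 with a median of -0.0066, and among genes under 10 FPKM 54.2% were below 0 with a median of -0.062. Among the 15 genes with a pathway role the median was -0.055 and 9 were below 0. Among the other 9 the median was -0.51 and 8 were below 0. IRS, TOR and tuberin each count more than once among the 15, as fragments, so the distinct genes are fewer. The shift below 0 was larger in the genes that carry the words without a role in the cascade. Of the 57 other pathway genes described below, 37 (64.9%) were also below 0.

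**Figure D3:**
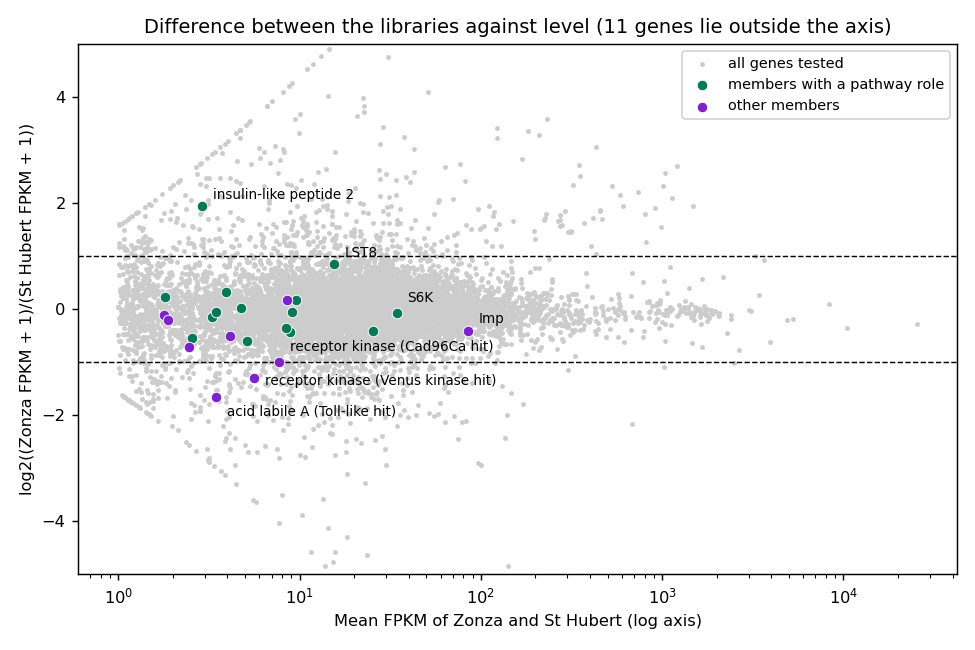
Log2 ratio of Zonza over St Hubert on the FPKM + 1 scale against mean FPKM (log axis) for 9457 genes (grey), with the 15 genes with a pathway role and the 9 other genes of the set coloured and 2-fold marked by dashed lines. Insulin-like peptide 2 lies above the upper line at 1.95, acid labile A (-1.66) and the venus kinase hit (-1.31) lie below the lower line, and grey genes spread most at low FPKM.

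Contigs of 1 Trinity gene can be isoforms, alleles or assembly fragments, and these were not told apart. Of the 26 genes, 9 had more than 1 contig with one of the words. In 4 of these 9 (44.4%) the contig with the highest FPKM differed between the libraries, compared with 54.0% of the 4144 genes of the transcriptome with more than 1 contig. Binding protein A is the clearest case among the genes with a pathway role. Its contig i1 held 66.3% of the FPKM of the gene in Zonza and 27.6% in St Hubert, and contig i2 held 33.7% in Zonza and 72.4% in St Hubert, although the gene sum was nearly even.

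In LST8 the difference came from both contigs, since i1 was at 4.09 FPKM in Zonza and listed at 0 in St Hubert, and i3 was at 16.1 FPKM in Zonza and 10.8 FPKM in St Hubert. Tuberin kept the same leading contig, i1, with 70.9% of the FPKM in Zonza and 68.6% in St Hubert. Its contig i2 held 12.4% in Zonza and 1.16% in St Hubert, and i4 held 3.90% in Zonza and 13.1% in St Hubert. S6 kinase delta-1 A and acid labile B each had a contig listed at 0 in one library: i1 of the kinase was at 2.46 FPKM in Zonza and 0 in St Hubert, and i1 of acid labile B was at 0 in Zonza and 2.51 FPKM in St Hubert. Of the 41 contigs, 1 was listed at 0 in Zonza and 5 in St Hubert, and over the transcriptome 1501 and 2592 of 17636 were, so zeros were more frequent in the St Hubert library as a whole. At the contig level 8 of 35 contigs tested passed 2-fold (22.9%), 3 higher and 5 lower in Zonza, against 39.7% of all 16054 contigs (21.7% higher and 18.0% lower).

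**Figure D4:**
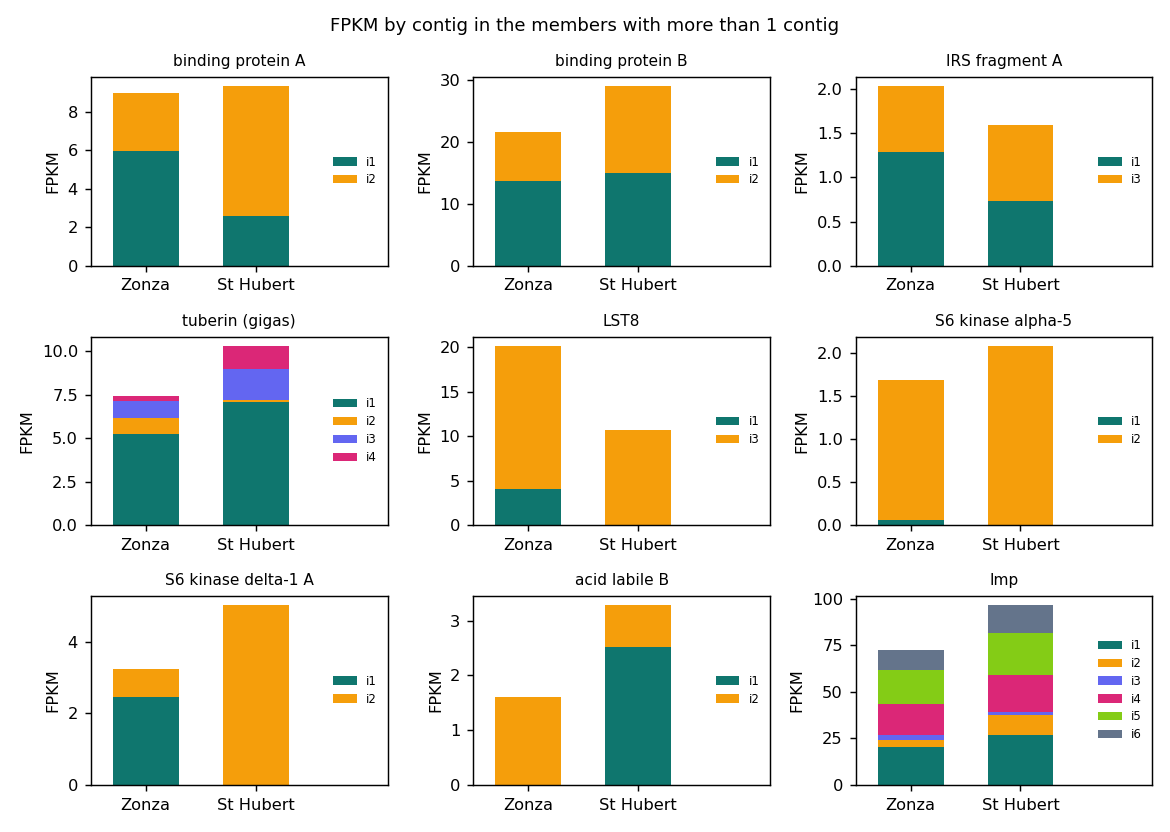
Stacked FPKM by contig, Zonza left and St Hubert right, for the 9 genes with more than 1 contig that holds one of the words, 1 library per population. The contigs of binding protein A trade places (i1 at 66.3% in Zonza and 27.6% in St Hubert), while tuberin and Imp keep the same leading contig in both libraries.

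Other genes of the pathway were read from lists by step, and 57 of them met the minimum. Of these, 1 was higher and 3 were lower in Zonza, where 5.20% of all genes tested were higher and 5.12% lower. Their median log2 ratio was -0.15, and 37 of the 57 (64.9%) were below 0, against 50.6% of all genes tested. Their median level of 20.97 FPKM was close to the 18.99 FPKM of all genes tested, unlike that of the set. The only PI3K catalytic subunit in the lists was named type 3 (c17561_g1), and a PI3K regulatory subunit 4 (c18623_g1) was counted as well. No catalytic subunit of another type was found, so the one that InR acts through may be missing from the lists. With the type 3 and regulatory subunit 4 genes included, the PI3K and Akt branch had 0 of 11 genes past 2-fold. Its most abundant genes were 14-3-3zeta (c14189_g1), at 694 FPKM in Zonza and 759 FPKM in St Hubert, and 14-3-3epsilon (c15052_g1), at 399.8 FPKM in Zonza and 465 FPKM in St Hubert, adaptor proteins that bind FOXO after Akt has phosphorylated it.

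The kinases between receptor and TOR were chosen for description after their values were seen. Akt1 (c16654_g2) was at 89.6 FPKM in Zonza and 103 FPKM in St Hubert, and PDK1 (c18089_g1), which activates Akt, was at 54.9 FPKM in Zonza and 87.2 FPKM in St Hubert, a log2 ratio of -0.66. The regulatory subunit of PI3K (c17975_g1) was at 19.1 FPKM in Zonza and 21.3 FPKM in St Hubert. By FPKM, a scale per length, Akt1 and PDK1 thus stood far above InR, IRS, Rheb and TOR in both populations.

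In the list for TOR complexes and amino acid sensing, whose genes do not all pass amino acid supply on to TOR, 1 of 18 passed 2-fold. A WDR24 hit (c11526_g2), a subunit of the GATOR complex in flies and mammals, was lower in Zonza, at 6.62 FPKM in Zonza and 14.8 FPKM in St Hubert, a log2 ratio of -1.05. The other WDR24 hits, c14350_g1 and c11526_g1, were even, with log2 ratios of 0.0049 and -0.057. The most abundant genes of this list were sec13 (c9630_g1), a protein shared by the GATOR complex and a vesicle coat, at 121 FPKM in Zonza and 103 FPKM in St Hubert, and RagC (c13643_g1), a GTPase that brings TOR to the lysosome, at 65.1 FPKM in Zonza and 70.1 FPKM in St Hubert.

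In the energy and stress input, 0 of 6 genes passed 2-fold. Charybde (c11365_g1), which restrains TOR in *Drosophila* under low oxygen, was at 169.7 FPKM in Zonza and 108 FPKM in St Hubert, a log2 ratio of 0.64. The gamma subunit of AMP-activated kinase (c14977_g1), the energy sensor, was at 48.9 FPKM in Zonza and 59.9 FPKM in St Hubert.

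Among targets of TOR in translation and growth, 0 of 7 genes passed 2-fold. Ribosomal protein S6 (c12520_g1), the substrate after which S6 kinase is named, was at 1828 FPKM in Zonza and 1900 FPKM in St Hubert. The cap-binding factor eIF4E (c16383_g1) was at 249 FPKM in Zonza and 305 FPKM in St Hubert. Its inhibitor, the 4E-binding protein named Thor in flies (c18514_g5), which is also a known FOXO target there, was at 27.5 FPKM in Zonza and 41.0 FPKM in St Hubert, a log2 ratio of -0.56. Thor was named after its values were seen.

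In autophagy, which TOR suppresses, 1 of 6 genes passed 2-fold. Atg1 (c17782_g1), the kinase that starts autophagy, was lower in Zonza, at 15.5 FPKM in Zonza and 36.6 FPKM in St Hubert, a log2 ratio of -1.19. The earlier transcriptome named the same contig as a THO complex subunit, so its identity is uncertain. The gene named after its partner Atg13 (c17622_g1), whose BLASTx hit is a different protein, was at 49.5 FPKM in Zonza and 60.5 FPKM in St Hubert.

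**Figure D5:**
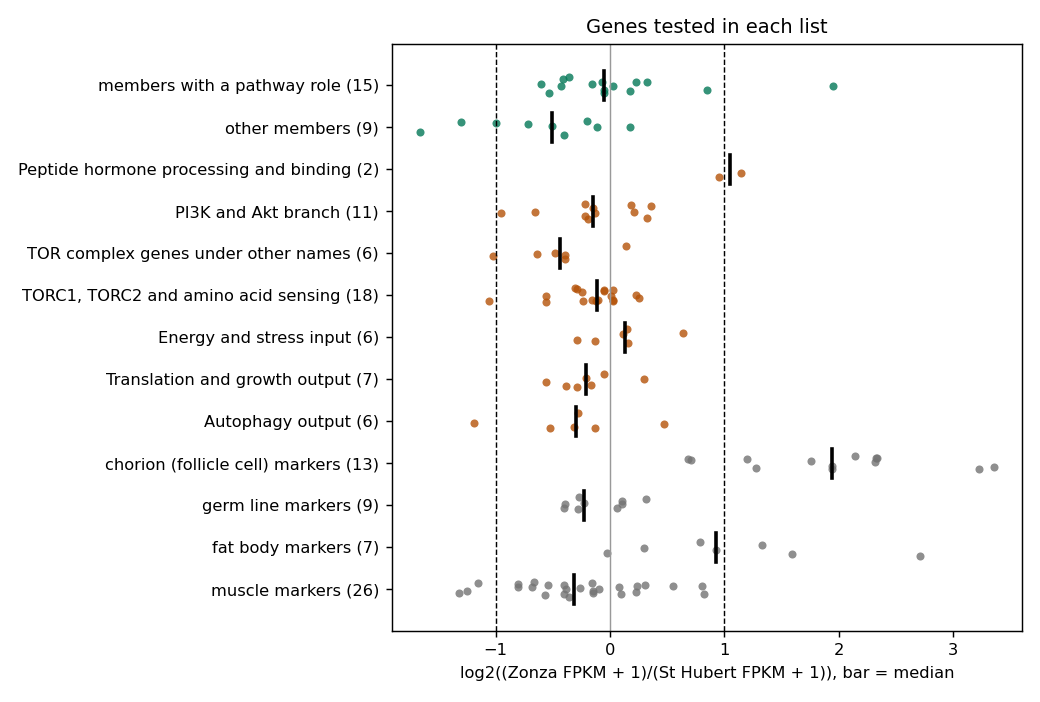
Log2 ratio of Zonza over St Hubert on the FPKM + 1 scale for each gene tested, by list, with the number of genes in brackets, black bars for medians and dashed lines at 2-fold. Most pathway genes lie between the dashed lines with list medians that run from -0.44 for the TOR complex genes under other names to 1.05 for the pair of bombyxins (-0.055 for genes with a pathway role), whereas the chorion markers all lie above 0 with a median of 1.94.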

How the data were processed

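The authors deposited FPKM per contig for 1 Zonza and 1 St Hubert mRNA library, computed by RSEM on a Trinity assembly of the pooled reads and reduced to contigs with a BLAST hit at an E-value cutoff of 1e-05, and no genome build applies. The FPKM columns are headed by the country or island of each population. The study sequenced both mRNA libraries to a similar depth, but the files hold no read counts, so no counting interval is given for an FPKM value. A search for whole-read steps found none that was clear (strength 0.172 in Zonza and 0.202 in St Hubert, on a scale from 0 to 1). The small RNA counts and the contig sequences were not used here.

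FPKM were summed over the contigs of a Trinity gene that hold a keyword or list name, and compared as log2((Zonza + 1)/(St Hubert + 1)) at a mean of at least 1 FPKM, with 2-fold as the threshold and without a test. The percentage of genes a level lies above is its percentile among all genes tested. Named were the genes of the set, of which 1 is counted but not reported here, and of each other list those past 2-fold and the 2 with the highest mean. Of the marker lists, sums, counts and a few known genes are given. Those genes, the kinases between receptor and TOR, rictor, Thor, and the TOR, raptor and WDR24 hits within 2-fold were named after their values were seen. Genes and lists were chosen with earlier results of these data known, and list patterns that hit unrelated words were corrected once descriptions had been seen. Alternatives were other pseudocounts (0.1 and 5), filters, contigs, annotation columns, median centring and gene definitions. Scripts were tested on simulated data that left out genes low in St Hubert and planted changes larger than the threshold. Python 3.11.15, numpy 2.4.6, pandas 2.3.3 and matplotlib 3.10.9 were used.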

Additional observations from a re-analysis of the deposited data

How the results depend on the processing

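Each population had 1 library, so no library could be left out. No paired analysis was possible because each population had 1 library and no test was made. Of the 24 genes tested, 2 were called lower and 1 higher in Zonza, with a median log2 ratio of -0.18. With a pseudocount of 0.1, 3 were lower and 1 higher, as the Cad96Ca hit also passed 2-fold at a log2 ratio of -1.12. With a pseudocount of 5, 0 were lower and 0 higher. The log2 ratios of the called genes were then 0.86 for insulin-like peptide 2, -0.78 for the venus kinase hit and -0.81 for acid labile A. Without a filter 2 were higher. At a mean of at least 5 FPKM, which keeps fewer genes, 1 was lower and 0 higher, with a median of -0.38. With the contig of highest mean FPKM in place of the sum 4 were lower, and with the longest contig 4 were lower and 2 higher. Only genes with the keyword in BLASTx gave 0 lower and 0 higher, and only those with a pathway role gave 0 lower and a median of -0.055. The calls thus rest on low values, and none of the called genes holds the keyword in its BLASTx hit. Insulin-like peptide 2 and acid labile A have the keyword from the earlier transcriptome alone. The venus kinase hit also has a nucleotide hit to an insulin receptor-related receptor, and it was the gene still lower at a mean of at least 5 FPKM. For single genes, 169 of the alternative values stayed on the same side of the threshold, 6 moved past it, 3 fell short of it, and 0 changed sign past it. Alternatives chosen after seeing the data, with spaces in the annotation closed up or all contigs of a gene summed, each gave 2 lower and 1 higher.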
